A study of Mus musculus with 12 samples.

Results

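The genes described here encode the proteins of the cytosolic ribosome. They were taken by symbol: every gene row named Rpl or Rps with a number, with or without a closing a, x, l or y, together with Rplp0, Rplp1, Rplp2 and Rpsa. The rule found 80 of the 26061 gene rows, 32 of the small subunit, 45 of the large subunit and 3 of the P stalk, and all 80 passed the filter on low values that left 14487 genes. RNA depleted of ribosomal RNA and sequenced with strand information came from E14 cells, a mouse embryonic stem cell line of 129/Ola background grown on gelatin without feeders. All 4 groups were transduced with a lentiviral pLKO.1 shRNA vector and collected after 3 days of puromycin selection, and each held 3 libraries. The groups were 2i with shSetdb1, 2i with shScr (a scrambled shRNA), serum with shSetdb1 and serum with shScr. Setdb1 encodes an H3K9 methyltransferase. The 2i medium, called naive in the labels, held N2, B27, LIF, PD0325901, which inhibits MEK, and CHIR99021, which inhibits GSK3. The serum medium, called primed, held fetal bovine serum and LIF. The labels name 1 shRNA against Setdb1, so its effects and those of Setdb1 depletion cannot be told apart, and they leave unsaid whether a group's libraries are separate cultures, so a p-value here reflects the spread among these libraries alone, which may be technical.

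Ribosomal protein mRNAs are short and abundant, and most begin at a cytidine followed by a run of pyrimidines, the terminal oligopyrimidine (TOP) tract. Through this tract the kinase complex mTORC1 and the binding protein LARP1 control their translation and stability. Many of the genes carry small nucleolar RNAs in their introns, and their mRNAs have left many processed pseudogenes in mammalian genomes. Structural RNAs are a different class: 7SK restrains the elongation factor P-TEFb, U2 is part of the spliceosome, and 7SL is part of the signal recognition particle.

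Sequences around the start site are shown for members named below, of which only Rpl28 did not pass for the relation to structural RNA. Each runs from 40 bases before to 20 bases after a RefSeq gene start (GRCm38.p6), and capitals mark TCTTT, a short pyrimidine word, on the gene's strand. The first 4 hold the word and the other 3 do not.
Rpl7a, chr2:26910767-26910826, plus strand: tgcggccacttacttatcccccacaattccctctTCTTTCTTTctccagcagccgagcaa
Rpl12, chr2:32961672-32961731, plus strand: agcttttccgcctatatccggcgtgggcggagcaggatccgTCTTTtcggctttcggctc
Rpl35, chr2:39005112-39005171, minus strand: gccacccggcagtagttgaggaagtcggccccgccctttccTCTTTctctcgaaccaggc
Rpl28, chr7:4792925-4792984, plus strand: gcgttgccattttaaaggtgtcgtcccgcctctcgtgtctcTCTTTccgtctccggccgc
Rps12, chr10:23787190-23787249, minus strand: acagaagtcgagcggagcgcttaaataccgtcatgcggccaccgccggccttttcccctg
Rpl39l, chr16:10170188-10170247, plus strand: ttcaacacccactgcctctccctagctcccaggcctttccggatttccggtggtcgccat
Rplp0, chr5:115559427-115559486, plus strand: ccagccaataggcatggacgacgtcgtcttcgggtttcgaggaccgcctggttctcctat
A promoter was found for 60 of the 80 members. TCTTT stood within 50 bases on either side of a start in 25 of them, or 41.7%, against 11.7% of the 16159 genes of the table with a promoter. On the other strand it stood in 3.33% of the members and 10.8% of all genes. A match is a description of these letters and not of a factor or a start used in these cells.

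The libraries held 4821181 to 15509401 gene reads, with the fewest in the third library of 2i shSetdb1, and 4407665 to 8962913 repeat reads. Setdb1 had 837, 610 and 340 normalised reads (reads divided by the library's size factor) in 2i shSetdb1, against 3607, 2724 and 2253 in 2i shScr. It had 418, 379 and 409 normalised reads in serum shSetdb1, against 2959, 2237 and 1587 in serum shScr, so the targeted mRNA was lower in every knockdown library of its medium. All 10 stem cell markers checked, among them Pou5f1 and Nanog, had reads in every group. The 6 fibroblast markers summed to at most 219 normalised reads in a library, and Col3a1 and Postn were at 0 in both serum groups. In 2i shScr only Col3a1 was at 0, and in 2i shSetdb1 none of the 6 was. The 5 primitive endoderm markers summed to at most 136 in a library. The 5 trophoblast markers summed to 2.77 to 467 in 2i shSetdb1 libraries, against 131 to 165 in 2i shScr. In serum they summed to 62.3 to 113 in shSetdb1 and 114 to 125 in shScr.

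Ribosomal protein mRNAs took a share of the gene reads that differed up to several times between libraries of the same group. The 80 genes held 2.90, 6.99 and 10.6% of gene reads in 2i shSetdb1 libraries 1 to 3, against 3.63, 3.39 and 6.73% in 2i shScr. They held 2.56, 3.48 and 6.26% in serum shSetdb1, against 2.92, 3.88 and 5.99% in serum shScr. Library 3 was the highest of each group, and the ranges of every pair of groups overlapped. In bulk RNA, a share can differ through these mRNAs or through all others, and fewer cells of a kind and less RNA per cell cannot be told apart. Small and large subunit genes moved alike: the small subunit took 0.910 to 4.06% and the large subunit 1.51 to 5.80% of gene reads, both lowest in serum shSetdb1 library 1 and highest in 2i shSetdb1 library 3. The 3 P stalk genes took 0.141 to 0.711%, with the same libraries at both ends.

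The structural RNA share of the repeat reads varied over the same libraries. The 83 structural RNA and tRNA families took 19.9, 55.6 and 69.5% of repeat reads in 2i shSetdb1 libraries 1 to 3, against 32.1, 38.9 and 64.6% in 2i shScr. They took 16.1, 15.6 and 42.6% in serum shSetdb1, against 24.2, 29.9 and 48.3% in serum shScr. Library 3 was again the highest of each group. The groups' means differed by less than this spread: 48.3 ± 25.6% in 2i shSetdb1 and 45.2 ± 17.1% in 2i shScr (SD, n = 3 each, two-sided exact permutation p = 0.9), and 24.8 ± 15.4% in serum shSetdb1 and 34.2 ± 12.6% in serum shScr (exact p = 0.5). Between media, the exact permutation p was 0.2 for 2i against serum in shSetdb1 cells and 0.5 in shScr cells, where 3 against 3 libraries cannot go below 0.1. The order was not the same for both shares throughout: 2i shScr library 2 had more structural RNA than library 1 and a lower ribosomal protein share, and serum shSetdb1 library 2 had slightly less structural RNA than library 1 and a higher ribosomal protein share. The RNAs behind the share also differed. In 2i shSetdb1 libraries 2 and 3, 7SK took 22.8 and 12.4% of repeat reads and U2 18.9 and 22.6%, while 7SL took 5.73 and 16.6%. In 2i shScr library 3, 7SK took 33.3% and U2 11.1%.

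**Figure D1:**
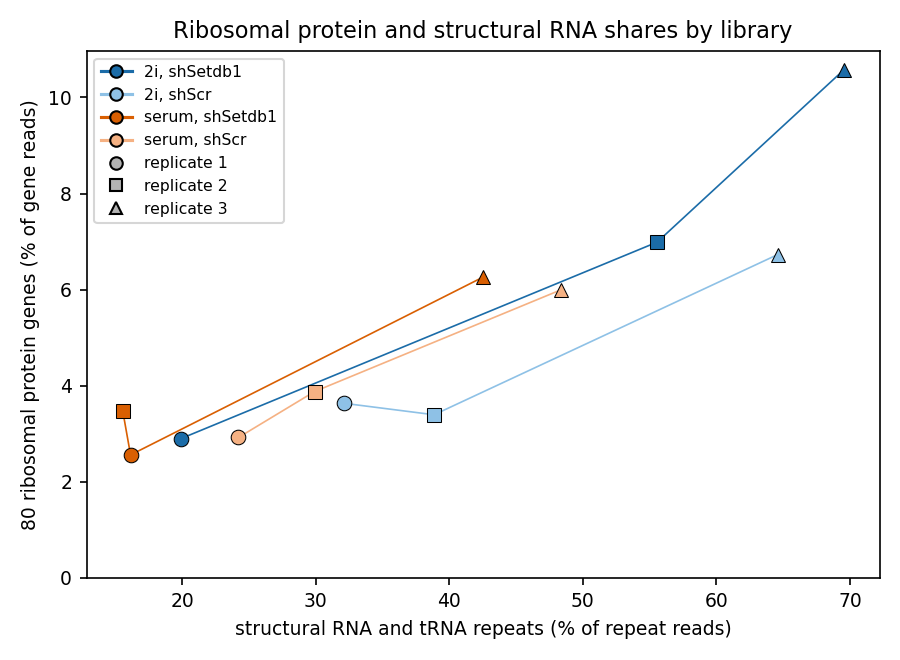
Share of gene reads in the 80 ribosomal protein genes (vertical axis, percent) against the structural RNA and tRNA share of repeat reads (horizontal axis, percent), 1 point per library, with colour for the group, shape for the replicate number and lines joining libraries of a group. The highest point of each group is its library 3, from 5.99% in serum shScr to 10.6% in 2i shSetdb1.

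Each gene was then related to the structural RNA share within groups, with limma and the 4 group means in the model. The slope is the log2 change per 10 percentage points of structural RNA share. It was positive and passed for 72 of the 80 ribosomal protein genes (Benjamini-Hochberg adjusted p under 0.05 over 14487 genes), and it passed for 26.0% of all genes in either direction and for 12.7% in the positive direction. No member passed with a negative slope, and none had a negative slope at an unadjusted p under 0.05. With voom on the recovered reads 72 members passed as higher and 0 as lower, and the share of all genes passing there is not given here. The median slope was 0.38, a 1.30-fold rise per 10 points. Over all genes kept the median was -0.01, a value that scaling by size factors holds near 0. The structural RNA share and the replicate number go together, since library 3 had the most structural RNA in every group. The labels do not say whether libraries of the same number were made together. With the replicate number as a block in the model the median slope was 0.36, its median SE was 0.14 in place of 0.06, and no member passed, with 0.0552% of all genes passing. With a block for the number within each medium, the median slope was 0.52 (median SE 0.15) and 52 members passed, with 6.03% of all genes passing. Without the 4 libraries numbered 3, the median was 0.37 and 8 members passed, with 2.14% of all genes passing. Leaving out any library in turn gave medians of 0.34 to 0.39, and 59 to 75 members passed, with 12.4 to 26.8% of all genes passing.

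The genes with the largest slopes belonged to both subunits. Rps12, a small subunit protein, had 1480, 4823 and 17026 normalised reads in 2i shSetdb1 libraries 1 to 3, against 1922, 1445 and 7258 in 2i shScr. It had 1580, 1648 and 4599 normalised reads in serum shSetdb1, against 1561, 2121 and 4560 in serum shScr. Library 3 was the highest of each group and the groups overlapped, and the slope was 0.64 (SE 0.06, limma adjusted p = 4.01e-06). Rps24, a small subunit protein mutated in some families with Diamond-Blackfan anaemia in humans, had 7684, 29117 and 63262 normalised reads in 2i shSetdb1, against 9332, 9072 and 30476 in 2i shScr. It had 5611, 9233 and 22335 normalised reads in serum shSetdb1, against 5975, 10217 and 22480 in serum shScr. Its slope was 0.61 (SE 0.06, limma adjusted p = 4.01e-06). The large subunit genes Rpl26, Rpl35, Rpl32 and Rpl7a followed, with slopes of 0.59, 0.58, 0.58 and 0.57. Rpl7a had 5200, 14409 and 40426 normalised reads in 2i shSetdb1, against 3656, 4078 and 14481 in 2i shScr. It had 2880, 3792 and 10614 normalised reads in serum shSetdb1, against 2864, 4347 and 6347 in serum shScr. Of the sequences above, Rpl7a and Rpl35 hold TCTTT and Rps12 does not.

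The P stalk recruits translation factors to the ribosome, and all 3 of its genes passed. The slopes were 0.49 for Rplp1 (SE 0.05), 0.43 for Rplp2 (SE 0.06) and 0.32 for Rplp0 (SE 0.06), the scaffold of the stalk. Rplp0 had 5687, 12463 and 26055 normalised reads in 2i shSetdb1, against 7027, 6932 and 13068 in 2i shScr. It had 6103, 7108 and 10008 normalised reads in serum shSetdb1, against 8261, 8279 and 9546 in serum shScr, where the 3 libraries lay close together. Rpsa, a small subunit protein also known as the laminin receptor, had a slope of 0.34 (SE 0.05).

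The 8 members that did not pass were Rpl3l, Rpl28, Rpl30, Rps16, Rpl29, Rpl24, Rps29 and Rps26, with slopes of -0.01 to 0.21. Rpl28, a large subunit protein, had 112, 170 and 174 normalised reads in 2i shSetdb1, against 117, 157 and 163 in 2i shScr. It had 73.0, 165 and 169 normalised reads in serum shSetdb1, against 118, 151 and 103 in serum shScr, and its slope was 0.09 (SE 0.07, limma adjusted p = 0.376). It was among the least abundant members and its spread within groups, 0.33 on the log2 scale, was the smallest of the 80. Its start window above holds TCTTT. Rps16, a small subunit protein, had 830 normalised reads in serum shSetdb1 library 2 and 39.1 to 199 in the other 11 libraries. Rpl3l, the striated muscle paralog of Rpl3, had at most 18.3 normalised reads in any library and none in 5 of the 12, while Rpl3 had 4099 to 13639.

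**Figure D2:**
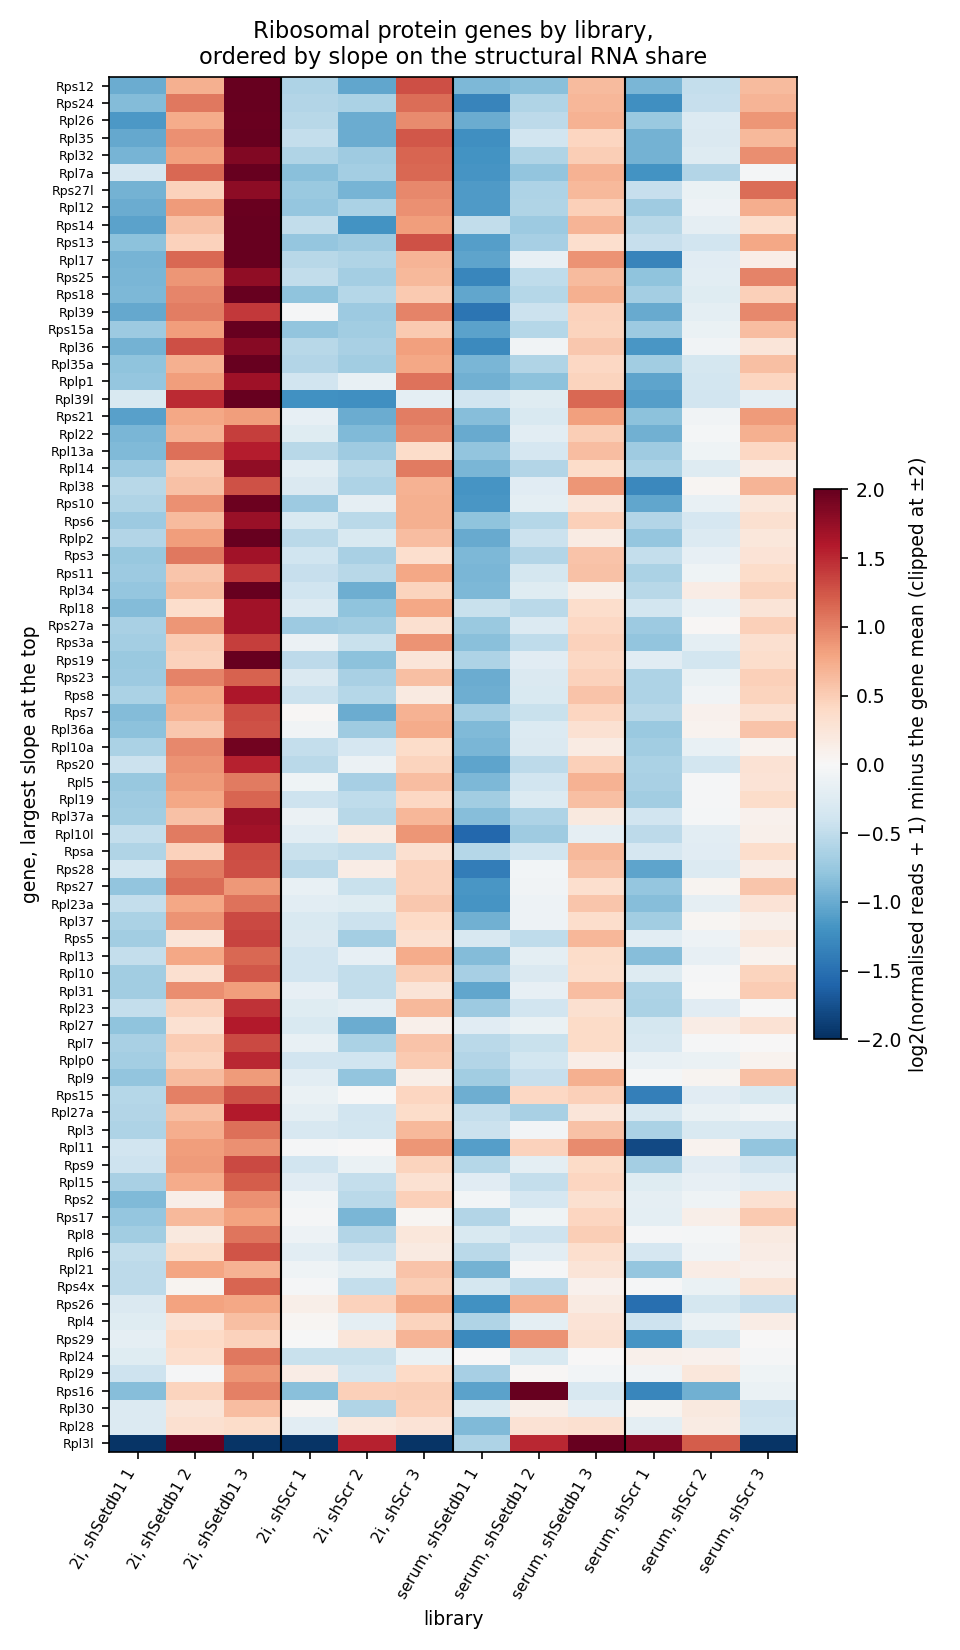
Ribosomal protein genes (79 rows, largest slope at the top) in the 12 libraries (columns, by group), coloured by log2(normalised reads + 1) minus the mean of the gene over all libraries, clipped at 2 either way. The third column of each group is the reddest for most rows, and 71 of all 80 genes have their highest value in 2i shSetdb1 library 3. That count was not made for genes outside the 80.

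Ranks of the libraries were also counted. In 63 of the 80 genes library 3 was the highest in all 4 groups, in 11 it was so in 3 groups, and in 6 it was so in 2 groups or fewer. The same count was not made over all genes kept, so it cannot show whether the ranks are particular to the members. The within-group spread was 0.75 in the median member and 0.33 to 1.21 over members, against a median of 0.45 over all genes kept (SD on the log2 scale). Rps12, Rps24 and Rpl35 spread the most, and Rpl28, Rpl24 and Rpl4 the least. Set against each gene's own mean, the median member lay lowest in serum shSetdb1 library 1, at -0.87, and highest in 2i shSetdb1 library 3, at 1.39 (log2). The median over all genes kept lay between -0.05 and 0.06 in every library. Scaling by size factors holds that median near 0, so it does not show that the other genes stayed level.

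By subunit, which the symbols give, the median slope was 0.39 for the small subunit, 0.33 for the large subunit and 0.43 for the P stalk. Features that the symbols do not use also split the members little. The median slope was 0.36 for the 30 members that host 58 annotated small nucleolar RNA genes and 0.38 for the 50 that host none. It was 0.39 for the 25 members with TCTTT at the start and 0.36 for the 35 without it. Near-identical copies elsewhere in the table, at 95% identity or more over at least 80% of the coding sequence, could exchange reads with 46 members, and in 25 of these the copies held more reads than the member. The median slope was 0.38 for the 46 and 0.37 for the 34 without a copy. With the copies' reads added, the ribosomal protein share was 4.20 to 17.4% of gene reads, lowest and highest in the same libraries as before.

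Length went with the slope in the other protein-coding genes, and less evenly among the members. Those other genes leave out the members alone. Lists given below that rose, such as replication-dependent histones and subunits outside the symbol rule, were not removed from them. How many genes of such lists fall in each length class was not counted, so their part in the medians of the shorter classes is not known. The 40 members with a coding sequence under the median of 462 bases had a median slope of 0.42, and the 40 others 0.33. Of the shorter 40, 35 passed, and of the others 37. Among other genes with a transcript under 500 bases in GENCODE M21, 104 in all, the median slope was 0.26 and 68.3% passed with a positive slope. The 17 members of that length had a median slope of 0.43. From 500 to under 1000 bases the medians were 0.37 in 44 members and 0.16 in 731 other genes. From 1000 to under 2000 bases they were 0.32 in 17 members and 0.06 in 2834 other genes. The 2 members from 2000 to under 4000 bases had a median of 0.38. Their coding sequences are 357 and 891 bases, and their class rests on the annotated transcript chosen for each. Other genes from 2000 to under 4000 bases had a median of -0.02 and those of 4000 or more -0.11, and 29.1% of the longest passed with a negative slope. Rpl4, at 1257 bases the longest coding sequence among the members, had a slope of 0.18 (SE 0.06, limma adjusted p = 0.0221). Rpl3, at 1209 bases, had 0.31, and the scarce Rpl3l, at 1221 bases, had -0.01. The part of length in the members' slopes was not tested.

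**Figure D3:**
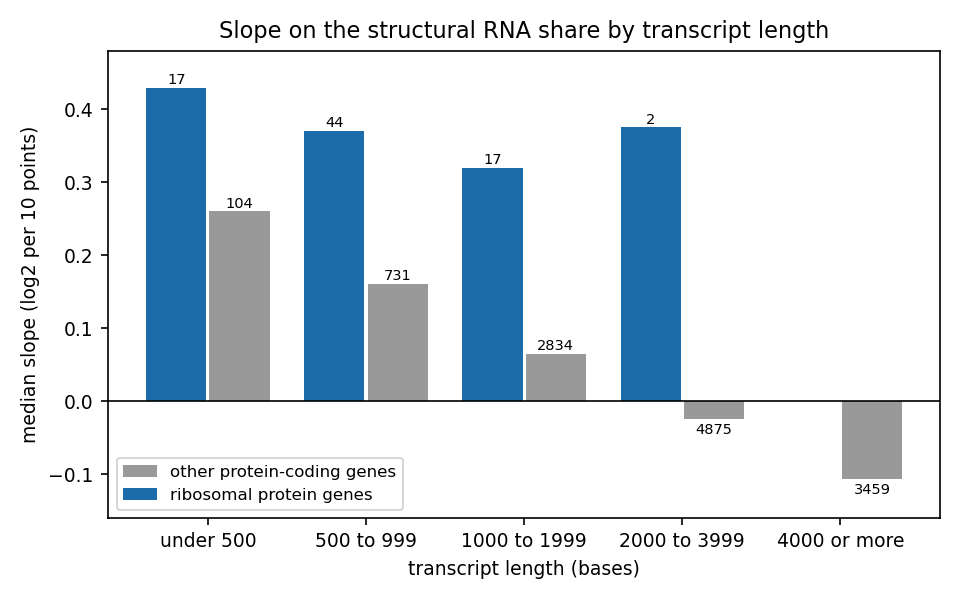
Median slope on the structural RNA share (log2 per 10 percentage points) for ribosomal protein genes and other protein-coding genes by transcript length in bases, with the number of genes at each bar. The medians of other genes go from 0.26 under 500 bases to -0.11 at 4000 or more, and those of the ribosomal protein genes lie between 0.32 and 0.43 in the 4 classes that hold any. The longest of these 4 classes holds 2 members, with coding sequences of 357 and 891 bases. Other genes leave out the ribosomal protein genes alone, and histones and other lists that rose were not removed.

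Other genes of the translation machinery did not share 1 direction. Of all genes kept, 12.7% rose and 13.3% fell with the structural RNA share. Among subunits that the symbol rule leaves out, 5 of 6 rose with the structural RNA share (median slope 0.30), including Rpl22l1 at 0.55 and Gnb2l1, the scaffold protein RACK1, at 0.40. Of 49 ribosomal protein pseudogene rows, 43 rose (median 0.33), and these can hold reads of the parent genes. Mitochondrial ribosomal proteins, which serve a separate ribosome, had a median of 0.15, and 31 of 77 rose. Of 34 translation factors and other TOP mRNAs, 13 rose and 9 fell: Eif4a2, Tpt1 and Eif3m had slopes of 0.42, 0.36 and 0.35, while Eif4g1, the scaffold of the cap-binding complex, had -0.39. Of 72 genes of ribosome biogenesis and RNA polymerase I, 7 rose and 29 fell (median -0.14), with Myc at -0.48, Utp20 at -0.46 and Ddx21 at -0.45. Myc was scarce, with 0 to 126 normalised reads, and stood at 0 in serum shScr library 3 and 2i shSetdb1 libraries 2 and 3. Of 17 mTORC1 and TOP regulators, 8 fell and the others did not pass (median -0.15), with Tsc2 at -0.36, Larp1 at -0.34 and Mtor at -0.33. Outside translation, 60 of 67 replication-dependent histone genes rose (median 0.29), as did 54 of 77 respiratory chain genes chosen by name (median 0.26) and 5 of 9 small nucleolar RNA host genes (median 0.23).

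**Figure D4:**
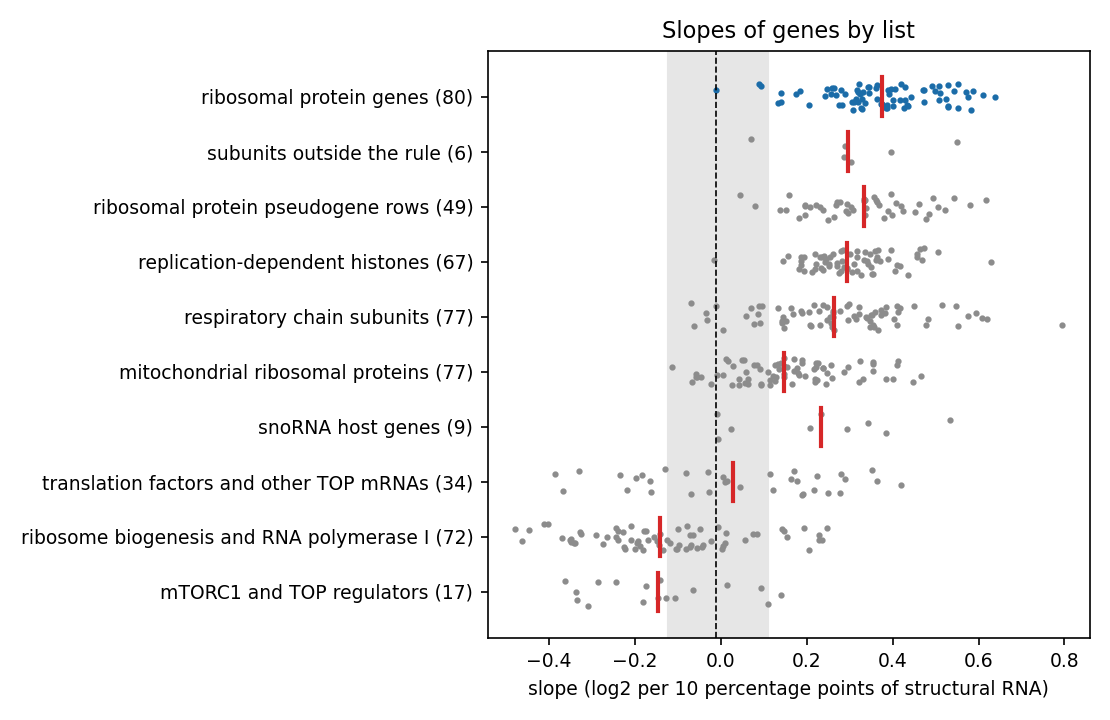
Slope on the structural RNA share (horizontal axis, log2 per 10 percentage points) of each gene by list (rows, number of genes in brackets), with a red bar at the median of the list, a dashed line at the median of all genes kept and grey from their lower to their upper quartile. Ribosomal protein genes have a median of 0.38, and ribosome biogenesis genes and mTORC1 regulators lie on the other side of 0, with medians of -0.14 and -0.15.

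From group means alone, no ribosomal protein gene passed for Setdb1 knockdown in either medium. In 2i, no member passed (limma, 1.27% of all genes passing), 2 members had an unadjusted p under 0.05, as did 7.37% of all genes, and voom also gave 0. The median change was 0.53 (log2, shSetdb1 minus shScr), 78 members were positive, and the smallest adjusted p was 0.135. The median SE was 0.51, and no member had all its 2i shSetdb1 libraries beyond those of 2i shScr, against 10.7% of all genes. The median rested on single libraries: it was 0.08 without 2i shSetdb1 library 3 and 1.09 without 2i shSetdb1 library 1. In serum, no member passed (0.649% of all genes passing), none had an unadjusted p under 0.05, against 5.09% of all genes, and voom gave 0. The median change was -0.10, 20 members were positive and 60 negative, and the groups of every member overlapped, against 9.71% of all genes whose groups did not. That median ranged from -0.43 without serum shSetdb1 library 3 to 0.18 without serum shSetdb1 library 1. The difference between the media in the knockdown change, 2i minus serum, had a median of 0.66 over members. It was 0.16 without 2i shSetdb1 library 3 and 1.24 without 2i shSetdb1 library 1. No member passed (0.00% of all genes), none had an unadjusted p under 0.05, against 2.79% of all genes, and voom gave 0.

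The groups of most members also overlapped between the media. These comparisons share libraries with those of the knockdown, so their medians are not independent. Between 2i and serum in shSetdb1 cells, the median change was 0.70 (log2, 2i minus serum) and 78 members were positive. No member passed with limma or voom, 3.75% of all genes did, and 5 members had an unadjusted p under 0.05, as did 18.5% of all genes. No member had groups that did not overlap, against 19.1% of all genes. The median was 0.25 without 2i shSetdb1 library 3 and 1.25 without 2i shSetdb1 library 1, and 19 members passed without that library 1, when 10.5% of all genes did. In shScr cells the median was 0.04, with no member passing with limma or voom, 3.62% of all genes passing and 2 members with an unadjusted p under 0.05, against 17.3% of all genes. It ranged from -0.28 without 2i shScr library 3 to 0.29 without serum shScr library 3. The groups did not overlap in 4 members, against 23.8% of all genes. Rps26, a small subunit protein, had 1483, 1874 and 2290 normalised reads in 2i shScr, against 475, 1063 and 987 in serum shScr (log2 change 1.18, SE 0.45, adjusted p = 0.175). Rps15, chosen after its values were seen, had 3619, 3947 and 5377 normalised reads in 2i shScr, against 1534, 3378 and 3207 in serum shScr. Rpl24 was the lower one, with 1554, 1545 and 1926 normalised reads in 2i shScr, against 2269, 2241 and 2078 in serum shScr.

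With the structural RNA share as a covariate, the median SE of the members' knockdown change in 2i was 0.25 in place of 0.51, and a few members passed. In 2i, 5 members were higher after knockdown (2.53% of all genes passing): Rpl39l, Rpl7a, Rps15a, Rps27a and Rps18, with log2 changes of 1.95, 1.08, 0.94, 0.86 and 0.84. Their limma adjusted p-values were 5.33e-05, 0.0154, 0.0368, 0.0462 and 0.0484, so the last 3 lay near the threshold. Near-identical copy rows held more reads than Rpl7a (97960 against 91718) and Rps27a (53263 against 20456). In serum, Rpl39l alone was higher after knockdown (log2 change 1.16, SE 0.25, limma adjusted p = 0.0180), with 1.40% of all genes passing. Between 2i and serum in shScr cells, 5 members were lower in 2i (8.22% of all genes passing): Rps27l, Rpl39l, Rpl9, Rps15a and Rpl12, with log2 changes of -1.01, -0.83, -0.83, -0.80 and -0.75. The limma adjusted p-values were 0.0159, 0.0455, 0.0424, 0.0485 and 0.0471. None of these 5 passed with the replicate number as a block beside the covariate. No member passed between 2i and serum in shSetdb1 cells, where 3.53% of all genes did, and the median change of the members was -0.19 in place of 0.70. Nor did any pass for the difference between the media in the knockdown change, with 0.00% of all genes passing and a median of 0.17. The median change of the members under the covariate was 0.43 for knockdown in 2i and 0.26 for knockdown in serum, against -0.10 from group means alone in serum. Between 2i and serum in shScr cells it was -0.37, against 0.04 from group means alone. The covariate subtracts from each change the gene's slope times the groups' difference in mean structural RNA share. That slope goes together with the replicate number. Any effect of knockdown or medium that runs along with this share is also taken out. Rps27a, Rps18 and Rpl12 were named after their values were seen.

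Rpl39l was the member with the largest change after knockdown in 2i. It is a paralog of Rpl39, a small protein lining the exit tunnel of the large subunit, and is known for its high level in the male germ line. Rpl39l had 1483, 5136 and 11213 normalised reads in 2i shSetdb1, against 793, 778 and 1596 in 2i shScr. It had 1406, 1550 and 4040 normalised reads in serum shSetdb1, against 856, 1408 and 1594 in serum shScr. In both media every knockdown library was above the shScr library of its number, and the labels do not say whether such libraries were paired. In each medium the lowest knockdown library lay within the range of the shScr libraries. Without the covariate the change was 2.10 in 2i (SE 0.59, limma adjusted p = 0.135) and 0.71 in serum (SE 0.59, adjusted p = 1), and the difference between the media was 1.39 (SE 0.83, adjusted p = 1.00). Its slope on the structural RNA share was 0.47 (SE 0.06). Rpl39 had 1225, 5092 and 6653 normalised reads in 2i shSetdb1, against 2466, 1516 and 4967 in 2i shScr. Rpl39 had 912, 1865 and 3435 normalised reads in serum shSetdb1, against 1244, 2177 and 4885 in serum shScr, so each serum knockdown library was below the shScr library of its number. No near-identical copy row was found for either gene.

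**Figure D5:**
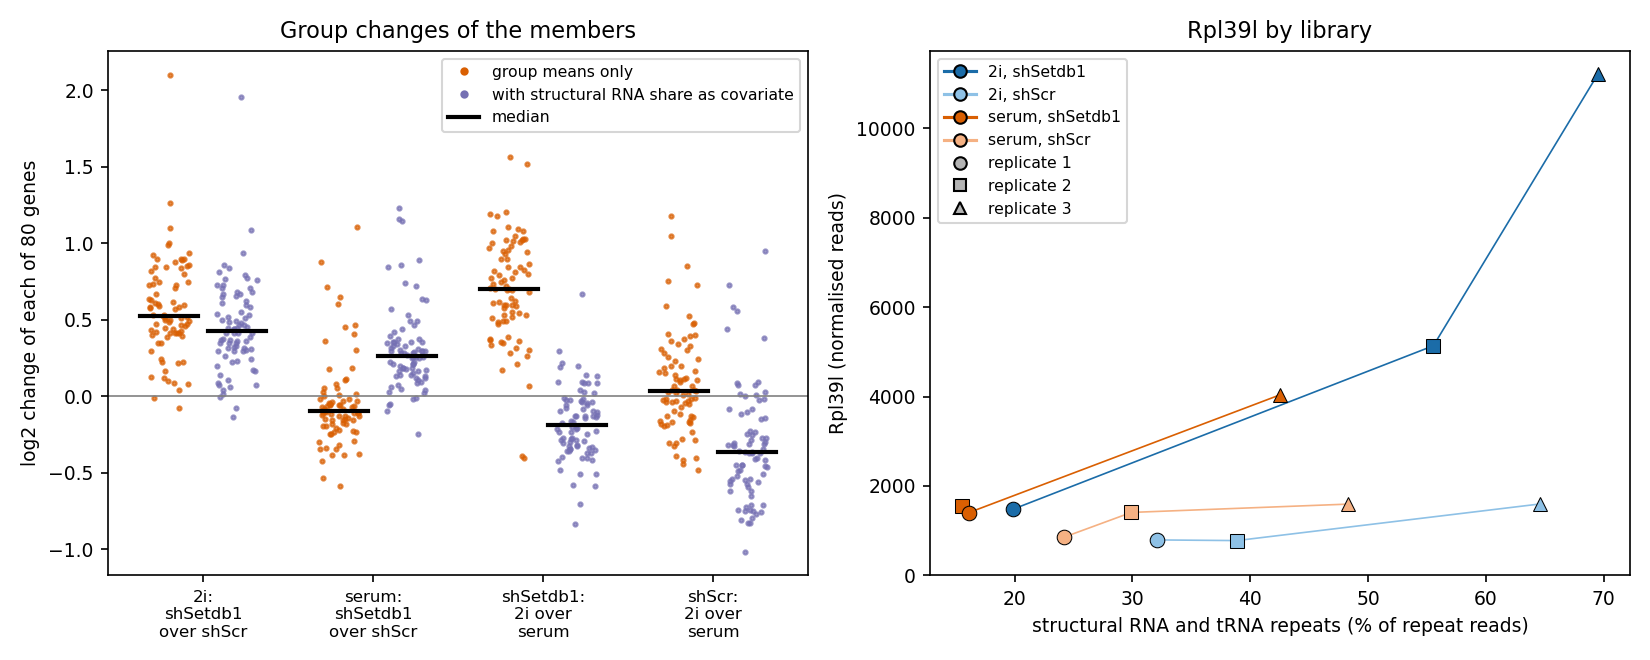
Left, log2 change of each of the 80 genes in 4 comparisons of groups, from group means alone (orange) and with the structural RNA share as a covariate (purple), with bars at the medians. Right, normalised reads of Rpl39l against the structural RNA share by library: 2i shSetdb1 library 3 reaches 11213 and 2i shScr library 3 stands at 1596.

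The other paralogs followed their partners in part. Rpl10l, a germ line copy of the X-linked Rpl10, had 959, 2730 and 4297 normalised reads in 2i shSetdb1, against 446, 817 and 1175 in serum shSetdb1, which differ by 1.52 on the log2 scale (SE 0.47, adjusted p = 0.0938 with limma). With the structural RNA share as a covariate that difference was 0.67 (limma adjusted p = 0.213), and with the replicate number as a block its adjusted p was 0.00187. It had 1152, 1500 and 2462 normalised reads in 2i shScr, against 932, 1158 and 1439 in serum shScr. Rpl10 had 1358, 2751 and 5177 normalised reads in 2i shSetdb1, against 1388, 1792 and 2796 in serum shSetdb1. Rps27l, known as a p53 target, had a slope of 0.55 (SE 0.06), and its partner Rps27 had 0.34 (SE 0.07). The X-linked Rps4x had a slope of 0.25 (SE 0.06).

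Levels per coding length spanned a wide range. Reads can also lie outside the coding sequence, which is 399 of 1613 transcript bases for Rps24. Near-identical copies can hold a gene's reads: Rpl34 had 12083 reads over all libraries, and its copy row had 130251. The levels below therefore rank rows and not whole mRNAs. Averaged over the libraries, Rpl22 had the highest level, 62081 normalised reads per kilobase of coding sequence, followed by Rplp1, Rpl26, Rps24 and Rps21 at 48923 to 43243. The median member had 10215, and the lowest were Rps16 at 352, Rpl28 at 339 and Rpl3l at 5.16. Between the lowest and the highest library, the median fold over 79 members with reads in every library was 5.35, from 2.31 to 21.2.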

How the data were processed

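The authors deposited log2-scale variance-stabilised values per gene and per repeat family. Per the submitters' processing notes, Trim Galore 0.3.3, TopHat2 2.0.9 and DESeq2 were used with the build mm9. How reads were counted, on which annotation, with which use of strand and treatment of reads with several places is not given in the sources used here. Inverting the transformation gave whole reads for 100% of values within 0.01 read, and size factors. Counting error alone is covered by such depths.

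Deposited log2 values went into limma 3.58.1 (R 4.3.3) over 12 libraries, with 1 mean per group, 8 residual degrees of freedom, a mean-variance trend and two-sided Benjamini-Hochberg adjusted p-values. Genes were kept at a mean at least 0.5 above the lowest value. The slope model added the structural RNA share. The steps were tested on simulated data, with noise drawn independently for each gene and no effect of the replicate number. That simulation cannot show how the slope p-values behave under spread that many genes share. Same-numbered serum libraries deviated together (correlations 0.58, 0.23 and 0.51), and those of 2i did not throughout (0.46, 0.06 and 0.52). Between media the correlations were 0.23, -0.18 and 0.22 in shScr cells and 0.50, 0.005 and 0.44 in shSetdb1 cells. A block for the number across media thus had little ground for number 2. Lengths, copies and hosted genes came from GENCODE M21 (GRCm38) and BLAST+ 2.17.0, and promoters from RefSeq (GRCm38.p6, 60 of 80 members matched). Named genes followed a rule: P stalk genes and Rpsa, paralogs, up to 6 members that passed with the largest change each way in a comparison, and extremes of change, level and spread. Members and lists were chosen with earlier results of these data known. Values of 1 member are not reported here by name.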

Additional observations from a re-analysis of the deposited data

How the results depend on the processing

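Over the slopes of the 37 named members, 798 alternative values stayed on the same side of the threshold, 82 no longer passed and 7 newly passed. No slope that passed changed direction, and those of Rpl3l, Rps16, Rps26 and Rps29, which did not pass, changed sign in some alternatives. With the replicate number as a block, members passing as higher numbered 2 for knockdown in 2i (Rpl7a and Rpl39l, 2.22% of all genes passing), 17 for 2i against serum in shSetdb1 cells (10.9%), 2 for 2i against serum in shScr cells (Rpl11 and Rps26, 9.33%) and 0 for the slope, and the serum knockdown count stayed at 0. A block within medium gave 2 for knockdown in 2i (2.93%) and 52 for the slope (6.03%). With the structural RNA share as a covariate, members passing as higher numbered 5 in 2i and 1 in serum for knockdown, 5 were lower between 2i and serum in shScr cells, and the median between 2i and serum in shSetdb1 cells was -0.19. With block and share together, the higher counts were 4 for knockdown in 2i, 1 in serum and 1 between media in shScr cells (2.78, 1.04 and 5.27% of all genes passing), the lower count in shScr cells was 0, and the median between media in shSetdb1 cells was -0.065. Without the 4 libraries numbered 3, a choice made after seeing the data, 8 slopes passed (2.14% of all genes passing). Leaving out each replicate gave 0 to 1 members for knockdown in 2i and 0 to 19 between media in shSetdb1 cells. The upper value in both cases came without 2i shSetdb1 library 1, when 1.75 and 10.5% of all genes passed. The causes were not tested. Quantile normalisation, voom and other filters gave slope counts of 71 to 73. The main fit gave 72, with 26.0% of all genes passing, and the share of all genes in these alternatives is not given here. The 2i shSetdb1 library 3 had the fewest gene reads, which limits its precision for scarce members such as Rpl3l.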
